A study of Mus musculus with 6 samples.

Results

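The nuclear genes for mitochondrial machinery were examined for RBPJ occupancy at their transcript starts in mouse F9 cells. They were taken from the GENCODE annotation of the mm9 genome as the protein-coding genes whose symbols begin with Mrpl or Mrps (the large and small subunit of the mitochondrial ribosome), Timm or Tomm (the protein import machinery of the inner and outer membrane), Nduf (respiratory complex I) or Atp5 (ATP synthase). There were 160 such genes among 22350 protein-coding genes on the chromosomes that carry peaks. They comprised 47 Mrpl, 30 Mrps, 12 Timm, 10 Tomm, 43 Nduf and 18 Atp5 genes, and the 22190 remaining protein-coding genes served for comparison. One symbol, Ndufb8, stood under more than one gene identifier, so that there were 159 distinct symbols.

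F9 is a mouse embryonal carcinoma line derived from a testicular teratoma. Chromatin was immunoprecipitated with a custom-made antibody to RBPJ from asynchronous cells, labelled as 95% in interphase and 5% in mitosis, and from mitotic cells, which were arrested with nocodazole, a drug that depolymerizes microtubules, and separated from the rest by their weaker attachment. The series comprised 6 samples, with 2 immunoprecipitations and 1 input per population, all from the same cell line, and no genetic change is named in the labels. A peak list of the first immunoprecipitation of each population was examined, so that there were no replicates, no test between populations was made, and the exact 95% intervals given below cover counting error only. Nocodazole and mitosis cannot be told apart in this design.

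Nearly all mitochondrial proteins are encoded in the nucleus, made in the cytosol and brought in through the TOM channel of the outer membrane and the TIM complexes of the inner membrane. The few proteins encoded by mitochondrial DNA are made on the mitochondrial ribosome and assemble with imported subunits into complex I, which takes electrons from NADH, and into ATP synthase, which is driven by the proton gradient. RBPJ is the DNA-binding effector of Notch signaling, and its binding site has the core TTCCCA.

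The asynchronous list held 5206 peaks, each 173 bp wide, and the mitotic list 3227 peaks, each 203 bp wide. A gene was counted as having a peak when the center of the peak lay within 2 kb of one of its annotated starts. The score is the value deposited for each peak. Its scaling is not given in the sources used here, so that scores were compared only within a list, where they began at 10.1 in the asynchronous and at 10.2 in the mitotic list. A gene without a peak is one whose signal was not called at these thresholds.

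The sequences under the peaks that the results turn on are shown first, as read from mm9 on the strand of the gene. The first 3 stretches come from the asynchronous peaks with the highest scores among mitochondrial genes with peaks in both lists. They are 1 of Atp5k (chr5:108863473-108863562, minus strand) and those around the start of Timm13 (chr10:80363685-80363774, minus strand) and in its exon sequence (chr10:80363644-80363673, minus strand). Tomm20 (chr8:129469940-129470029, minus strand) is shown because peaks of both lists were centered there with none of the motifs searched. Timm44 (chr8:4275925-4276014, minus strand), Ndufaf1 (chr2:119488476-119488505, minus strand) and Ndufa9 (chr6:126799186-126799275, minus strand) are shown for a TTCCCA core. Atp5d (chr10:79605079-79605108, plus strand) and Tomm40l (chr1:173152442-173152531, minus strand) are shown because they and Atp5k were the genes whose peaks held the full RBPJ motif, TTCCCACA or TTCCCACG. Capitals mark the full RBPJ motif in Atp5k, Atp5d and Tomm40l, the TTCCCA core in Timm13 (start), Timm44, Ndufaf1 and Ndufa9, and a match to the ZNF143 core in Timm13 (exon). A motif on the other strand reads as its reverse complement. Each stretch was limited to 30 bases of annotated exon.
Atp5k: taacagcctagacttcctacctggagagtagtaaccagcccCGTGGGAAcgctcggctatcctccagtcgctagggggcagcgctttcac
Timm13 (start): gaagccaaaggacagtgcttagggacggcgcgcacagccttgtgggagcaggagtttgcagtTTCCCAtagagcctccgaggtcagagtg
Timm13 (exon): cgggtttgTGGGAGGTGTAGTttaacttgt
Tomm20: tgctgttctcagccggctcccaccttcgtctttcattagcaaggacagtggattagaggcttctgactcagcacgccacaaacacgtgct
Timm44: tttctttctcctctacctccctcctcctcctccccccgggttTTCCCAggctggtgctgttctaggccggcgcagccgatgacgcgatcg
Ndufaf1: ccttctcataggTGGGAActgcagggacga
Ndufa9: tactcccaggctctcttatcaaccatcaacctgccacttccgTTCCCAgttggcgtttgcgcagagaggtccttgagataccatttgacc
Atp5d: gcgtgcgttctTGTGGGAActgcgcctccc
Tomm40l: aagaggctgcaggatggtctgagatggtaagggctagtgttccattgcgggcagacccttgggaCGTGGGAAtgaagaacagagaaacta

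To ask how often RBPJ peaks lay at these genes, the share with a peak was compared with that of the other protein-coding genes. In asynchronous cells, 43 of the 160 mitochondrial genes had a peak (26.9%, 95% interval 20.2% to 34.4%), against 10.2% of the other genes (9.79% to 10.6%), a ratio of 2.64. In mitotic cells, 12 of 160 had a peak (7.50%, 3.94% to 12.7%), against 4.95% of the other genes (4.67% to 5.24%), a ratio of 1.52. The asynchronous share thus stood 16.7 percentage points above the background and its interval did not reach it, and the mitotic interval included the background. This is a description, since the intervals treat genes as independent although some share a peak. The difference between the lists was not tested. Altogether 48 of the 160 genes (30.0%) had a peak in at least 1 list and 112 had none.

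Peaks of both lists were found at 7 of the 160 mitochondrial genes (4.38%, 1.78% to 8.81%), with a background of 1.83%, and the peaks overlapped by at least 1 bp at 4 of them (2.50%, 0.685% to 6.28%), with a background of 1.14%. Of the 43 genes with an asynchronous peak, 7 also had a mitotic peak (16.3%, 6.81% to 30.7%), close to the 17.96% among other genes with an asynchronous peak. Read from the mitotic side, 7 of the 12 genes with a mitotic peak also had an asynchronous one (58.3%, 27.7% to 84.8%), against 36.98% of other genes. Both intervals include the value of the other genes.

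**Figure D1:**
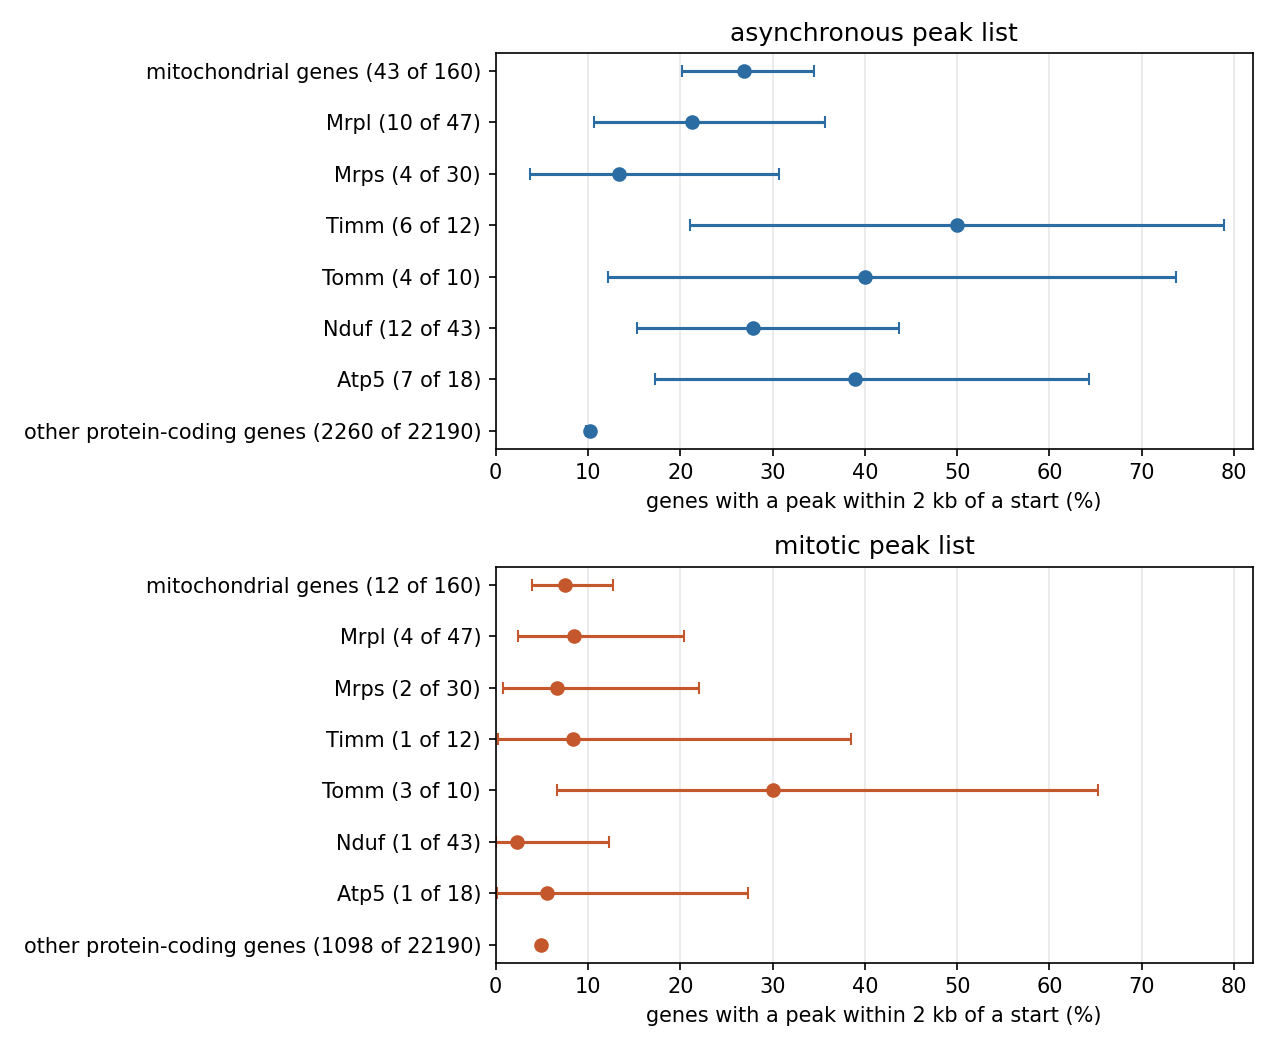
Share of genes with a peak centered within 2 kb of a start (x axis, percent) for all 160 mitochondrial genes, for each symbol prefix and for the other protein-coding genes, in the asynchronous (top) and mitotic (bottom) list. Points are shares and bars exact 95% intervals; the asynchronous shares run from 13.3% (Mrps) to 50% (Timm), and the intervals of the prefixes overlap each other.

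The import machinery had the highest shares. In asynchronous cells 6 of 12 Timm genes (50%, 21.1% to 78.9%) and 4 of 10 Tomm genes (40.0%, 12.2% to 73.8%) had a peak, followed by 7 of 18 Atp5 genes (38.9%, 17.3% to 64.3%) and 12 of 43 Nduf genes (27.9%, 15.3% to 43.7%). The ribosomal proteins were lowest, with 10 of 47 Mrpl genes (21.3%, 10.7% to 35.7%) and 4 of 30 Mrps genes (13.3%, 3.76% to 30.7%). The order is not resolved at these counts, since the intervals of all prefixes overlap, and for Mrps the interval included the background. In the plot of shares by prefix, the mitotic list gave 4 Mrpl, 3 Tomm and 2 Mrps genes and 1 each of Timm, Nduf and Atp5, with Tomm highest (30.0%, 6.67% to 65.2%).

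Among the import genes, Timm13, a small chaperone that escorts hydrophobic proteins through the intermembrane space, had the highest score of any mitochondrial gene in either list. Its score was 26.2 in the asynchronous and 25.5 in the mitotic list, where it ranked 20 of 3227. The centers lay 18 and 21 bp downstream of the start, in non-coding exon sequence, and 3 bp apart. The gene occupies chr10:80362195-80363714 on the minus strand.

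Tomm20, the receptor of the outer membrane that recognizes targeting presequences (chr8:129458043-129469723, minus strand), had an asynchronous peak of score 15.2 centered 262 bp upstream of its start and a mitotic peak of score 16.0 centered 263 bp upstream. These centers, 1 bp apart, were the closest pair among the mitochondrial genes. Tomm20 also had mitotic peaks 425 bp (score 10.9) and 857 bp (score 11.6) inside the gene, in intron sequence, with no asynchronous peak beside them, and was the only gene of the set with 3 peaks in a list.

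Timm44, which ties the import motor to the inner membrane channel, had an asynchronous peak of score 19.0 centered 57 bp upstream of its start and no mitotic peak. Tomm40l, a relative of the import channel, had asynchronous peaks of score 10.6 and 11, centered 35 and 1109 bp downstream of its nearest starts, and a mitotic peak of score 10.9 centered 96 bp upstream of its outermost start. The mitotic peak was 213 bp from the nearer asynchronous one and did not overlap it. Tomm40, the channel itself, had only a mitotic peak, of score 11.6 and 279 bp upstream.

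Timm17b, a subunit of the inner membrane channel, had an asynchronous peak of score 13.5 lying 1349 bp from its nearest start, the most distant peak in the set that was counted, and the start of Gm10491 was nearer. The other import genes with an asynchronous peak were Timm10, Timm17a, Timm22, Tomm5 and Tomm6. Tomm20, Timm44, the complex I gene Ndufa13 and the ribosomal gene Mrps31 lie on chromosome 8, which held 9.95% of asynchronous and 16.3% of mitotic peaks with 4.84% of the genes. Of other genes on this chromosome, 18.6% had an asynchronous and 11.2% a mitotic peak, and its part in the results for these 4 genes was not tested. Without chromosome 8, 25.97% of the mitochondrial genes had an asynchronous and 6.49% a mitotic peak, ratios of 2.66 and 1.40 to the other genes off this chromosome.

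ATP synthase genes followed in score. Atp5k, which encodes the small subunit e of the membrane part (chr5:108862263-108863467, minus strand), had scores of 25.3 in the asynchronous list (rank 87 of 5206) and 15.3 in the mitotic list (rank 104 of 3227), centered 61 and 66 bp upstream of its start and 5 bp apart. It was the gene with a peak in both lists and the full RBPJ motif under both peaks. Atp5f1, subunit b of the peripheral stalk, had an asynchronous peak of score 20.3 centered 37 bp from its nearest start, with a start of the neighboring gene Wdr77 56 bp away.

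The c ring, which turns as protons pass, is built from a protein encoded by Atp5g1, Atp5g2 and Atp5g3. All 3 had an asynchronous peak, with scores of 13.9, 13.5 and 11 and centers 292, 139 and 169 bp upstream, and none had a mitotic peak. Atp5d, the delta subunit of the central stalk, had a score of 13.9 with the center 5 bp from a start. Atp5a1, which encodes the catalytic-head subunit alpha, was the remaining ATP synthase gene with an asynchronous peak, so that all but Atp5k of the 7 genes were found in the asynchronous list only.

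Of the complex I genes, 12 had an asynchronous and 1 a mitotic peak, and the difference between the lists was not tested. Ndufaf1, an assembly factor that is not itself a subunit, had the highest score, 19.4, with its center 1 bp from a start. Leaving out the 4 assembly factors named Ndufaf, 11 of 39 genes (28.2%) had an asynchronous peak. Ndufa9, an accessory subunit, was the gene with peaks of both lists, of score 13.1 centered 28 bp upstream in asynchronous and of score 10.2 centered 281 bp upstream in mitotic cells. These peaks were 253 bp apart and did not overlap. The others included the core subunits Ndufs1, Ndufs3 and Ndufs7, which carry or surround the iron-sulfur clusters, and Ndufa7, Ndufa13, Ndufb2, Ndufb3, Ndufb5 and Ndufc2.

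In the mitochondrial ribosome, Mrpl1 had an asynchronous peak of score 19.8 centered 10 bp from an internal start and a mitotic peak of score 10.2 centered 96 bp downstream of the outermost start. The centers were 545 bp apart and the peaks did not overlap. Mrpl51 had asynchronous peaks of score 14.8 (142 bp downstream) and 12.2 (257 bp upstream), and the mitotic peak, of score 10.9, overlapped the first by 117 bp with its center 71 bp further downstream. Mrpl21 had an asynchronous peak of score 15.2 centered 40 bp from its start, which lay 2 bp from a start of the DNA helicase gene Ighmbp2.

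Mitotic peaks with no asynchronous peak within 2 kb were found at Mrps31, Mrps6, Mrpl43 and Mrpl50, beside Tomm40. Mrps31 had the highest score of these, 16.0 (rank 82 of 3227), and its center lay 45 bp downstream of the start. The other ribosomal genes had scores of 10.2, at the lower limit of the list. Their centers were 50 bp downstream in Mrpl50, in coding sequence, and 478 and 595 bp upstream of Mrpl43 and Mrps6, and at Mrpl43 the start of Peo1, the mitochondrial DNA helicase, was nearer (362 bp). The remaining ribosomal genes with an asynchronous peak were Mrpl2, Mrpl3, Mrpl27, Mrpl33, Mrpl44, Mrpl47, Mrpl54, Mrps9, Mrps18b, Mrps18c and Mrps34.

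**Figure D2:**
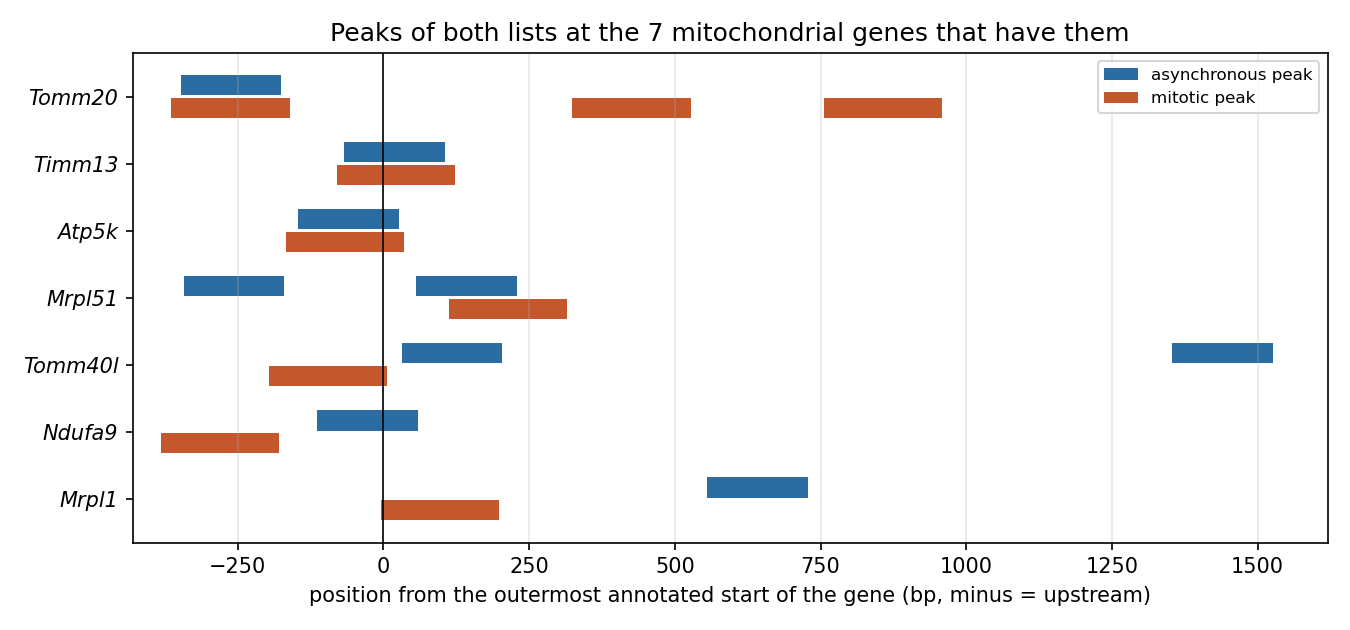
Asynchronous (blue) and mitotic (orange) peaks at the 7 mitochondrial genes with peaks of both lists, drawn to scale by distance from the outermost annotated start (x axis, bp, negative upstream). The peaks of Tomm20, Timm13 and Atp5k coincide, with centers 1, 3 and 5 bp apart, those of Mrpl51 overlap in part, and those of Tomm40l, Ndufa9 and Mrpl1 do not overlap.

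The 7 genes with peaks of both lists thus fell into pairs that coincided and pairs that did not. The median distance between centers was 4 bp in the 4 overlapping pairs and 46.5 bp in 214 overlapping pairs at other starts. The 214 include the pair of Mrpl51, whose asynchronous peak also lay 348 bp from a start of Ncapd2. With 4 pairs the comparison is a description only. At the 3 genes with no overlapping pair the nearest peaks were 213, 253 and 545 bp apart. Counting every pair with centers within 1 kb gave 9 pairs, in which Tomm20, with 3 mitotic peaks, and Mrpl51, with 2 asynchronous peaks, entered more than once.

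The 46 asynchronous peaks at mitochondrial genes lay close to the starts. Their median distance from a start of the gene was 140.5 bp, against 192 bp at other starts, and 38 of 46 (82.6%) were within 300 bp, against 59.3%. In the mitotic list the median was 207 bp for 14 peaks, against 392 bp, and 10 of 14 (71.4%) were within 300 bp, against 40.1%. Of the 47 asynchronous links of a peak to a gene, 28 lay upstream and 19 downstream, with 21 centers outside the gene, 19 in a non-coding exon or UTR and 7 in an intron.

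The scores at the mitochondrial genes were close to those of the whole lists. The median was 11.8 for the 46 asynchronous peaks, equal to the 11.8 of the whole list, and 10.9 for the 14 mitotic peaks, equal to its list. In the top 25% of the list by score were 9 of the 46 asynchronous peaks (19.6%) and 4 of the 14 mitotic peaks (28.6%). More of the mitochondrial than of the other genes thus had an asynchronous peak, and it lay closer to the start, while the median score was the same. Keeping only peaks at or above the median score of their list left 16.3% of the genes with an asynchronous peak, a ratio of 2.87 to the other genes.

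**Figure D3:**
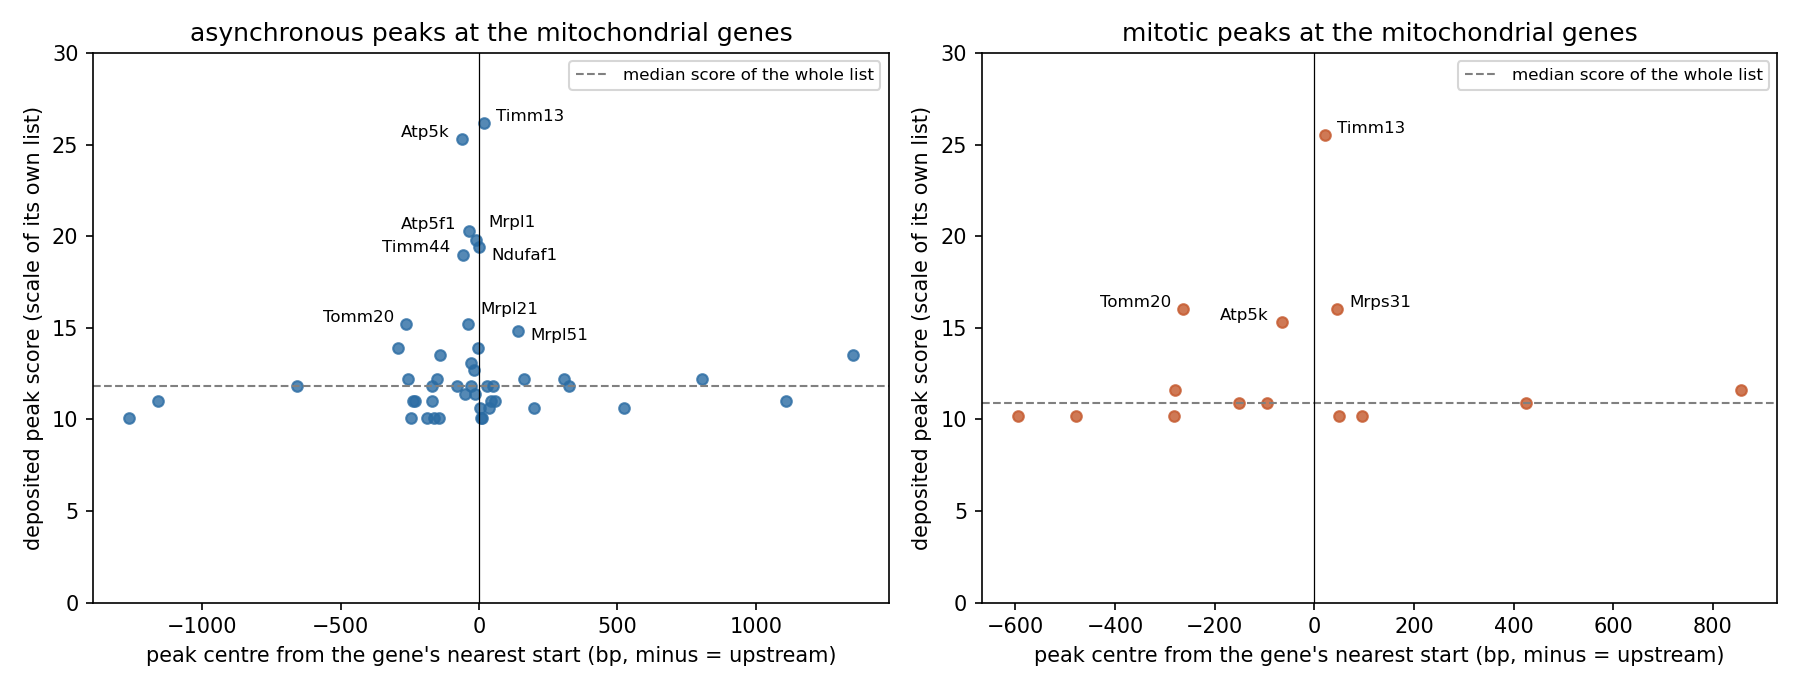
Deposited peak score (y axis, scale of its own list) against the distance of the peak center from the nearest start of the gene (x axis, bp, negative upstream) for 46 asynchronous peaks (left, 47 links to genes) and 14 mitotic peaks (right). The dashed line is the median score of the whole list, 11.8 and 10.9; the asynchronous peaks labelled by name, with scores from 14.8 to 26.2, lie within 300 bp of a start.

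Many of these starts lie close to a start of a neighboring gene. A start of another gene on the opposite strand lay within 1 kb, on either side, of 56 of the 160 genes (35.0%), against 11.8% of other genes. It is called a divergent start below, although genes arranged in this way can also overlap. For 11 of the 47 asynchronous links, the start of another gene was nearer to the peak, as with Mrps18b (Ppp1r10), Ndufs3 (Kbtbd4), Ndufs1 (Eef1b2), Ndufa7 (Rps28) and Mrpl27 (Eme1), and 1 peak stood at both Mrpl47 and Ndufb5. A peak at such a start cannot be assigned to either gene. When each peak was given only to its nearest start, 33 of 160 genes (20.6%) had an asynchronous and 11 (6.88%) a mitotic peak, ratios of 2.34 and 1.59 to the other genes under the same rule.

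The difference from other genes was recomputed without and with a divergent start, and among genes whose outermost start was rich in CpG. Without a divergent start, 25 of 104 mitochondrial genes (24.0%, 16.2% to 33.4%) had an asynchronous peak, against 8.67% of other genes. With one, it was 18 of 56 (32.1%, 20.3% to 45.96%), against 21.5%, which the interval included. For CpG content, the 250 bp on each side of the outermost start of each gene were examined, and no other start. This start was called CpG-rich when the G and C content was at least 50%. It also had to have at least 0.6 times the CpG pairs that this content would give. Of the mitochondrial genes, 135 of 160 (84.4%) had such a start, against 47.4% of other genes.

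Among genes with a CpG-rich start, 34 of 135 mitochondrial genes (25.2%, 18.1% to 33.4%) had an asynchronous peak, against 15.6% of other genes, which brought the ratio to 1.61. The mitotic shares were then 7.41% (3.61% to 13.2%) and 7.54%, a ratio of 0.982, so that the small mitotic excess was no longer seen. The asynchronous difference was thus smaller among genes with a CpG-rich start than among all genes. The interval of these mitochondrial genes still lay above the share of the other genes. Genes whose outermost start was not CpG-rich were not compared as a group, and the part of CpG content in the difference was not tested. Of the 43 genes with an asynchronous peak, 9 had an outermost start that was not CpG-rich, among them Atp5f1, Atp5d, Mrpl1 and Tomm40l. The asynchronous peaks of these named genes were nearest to other starts of the gene, whose CpG content was not measured.

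**Figure D4:**
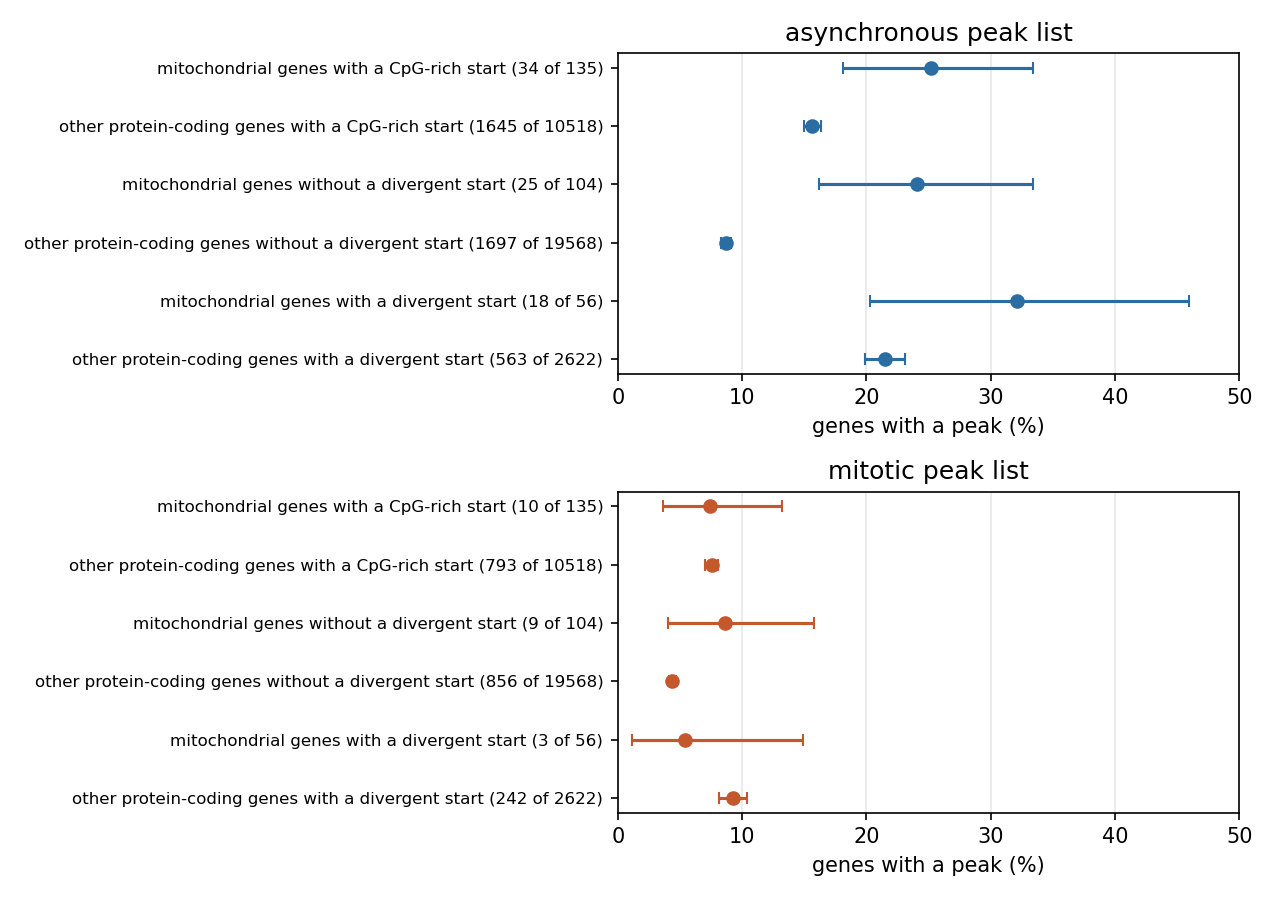
Share of genes with a peak (x axis, percent, exact 95% intervals) for mitochondrial and other genes with the same kind of start, in the asynchronous (top) and mitotic (bottom) list. In the asynchronous list the mitochondrial genes lie above the other genes in each kind shown, 25.2% against 15.6% at CpG-rich starts, and in the mitotic list the shares at CpG-rich starts are 7.41% and 7.54%. Genes with a start that is not CpG-rich are not shown as a group.

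The sequences under the peaks were then searched on both strands. The full RBPJ motif was found in 3 of the 46 asynchronous peaks (6.52%, 1.37% to 17.9%), those shown above for Atp5k, Atp5d and Tomm40l, against 9.18% of 2080 asynchronous peaks at other starts. The shorter core TTCCCA, which the full motif includes, was in 11 of 46 (23.9%, 12.6% to 38.8%), against 33.7%. In 300 bp at every outermost start, the full motif was found at 5.00% of mitochondrial and 2.43% of other genes, and the core at 28.1% and 23.3%. The RBPJ motif and its core were thus found in no larger share of these peaks than of peaks at other starts, and both intervals include the latter share. In 300 bp around the peak center, the full motif was in 5 of 46 (10.9%), which was not counted for other starts.

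In the sequences printed above, Timm13 carried its TTCCCA core in the first bases of the transcript, Timm44 and Ndufa9 upstream of the start, and Ndufaf1 within exon sequence. Timm13 also held the core of the ZNF143 site (ACTACA, any 2 bases, TCCCA) without a mismatch, in both the asynchronous and the mitotic peak. This core can include TTCCCA, as it did in the asynchronous peak near Mrpl54, but at Timm13 they lay apart. Allowing 1 mismatch in its 11 fixed bases, the ZNF143 core was in 2 of 46 asynchronous peaks (4.35%, 0.531% to 14.8%), against 6.92% at other starts, and in 300 bp at 9.38% of mitochondrial and 3.38% of other starts.

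The core of the binding site of CTCF, an insulator protein, was searched as CC, any 3 bases, AG, A or G, G or T, GGC. No mismatch was allowed, unlike for ZNF143, so that near matches to CTCF were not counted. It was in 2 of 46 peaks (4.35%), at Tomm5 and at the farther peak of Tomm40l, against 6.49%. In 300 bp it was at 5.00% of mitochondrial and 3.54% of other starts. None of TTCCCA, CTCF and ZNF143, as searched here, was found in 33 of the 46 asynchronous peaks (71.7%), against 59.3% of peaks at other starts. In the mitotic list the count was 12 of 14 (85.7%), against 69.4%. The peak of Tomm20 was one of these in both lists, and the stretch printed above is its middle.

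Motifs that are common at the starts of nuclear genes for mitochondrial proteins were frequent at these starts, with or without a peak. CCGGAAG, the core of the ETS family, to which the respiratory regulator GABP belongs, was in 300 bp at 31.9% of mitochondrial starts (24.7% to 39.7%), against 11.1% of other starts. AAGATGGCG, the YY1 core, was at 11.9% (7.30% to 17.9%), against 2.20%, and GCGCATGCG, the NRF1 core, at 6.88% (3.48% to 12.0%), against 1.95%. Among the mitochondrial starts, CCGGAAG was at 27.9% of the 43 with an asynchronous peak and at 33.0% of the 112 with no peak. The corresponding values were 6.98% and 14.3% for AAGATGGCG and 4.65% and 8.04% for GCGCATGCG. In these windows CCGGAAG, AAGATGGCG and GCGCATGCG were thus no more frequent at genes with an asynchronous peak than at genes with no peak. The full RBPJ motif was at 6.98% with an asynchronous peak and 4.46% with none, and TTCCCA at 32.6% and 26.8%. The CTCF core was at 6.98% and 4.46%, and the ZNF143 core, with 1 mismatch allowed, at 9.30% and 8.93%. For each motif the intervals overlap and no difference was tested, and the window at the outermost start need not hold the peak.

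Under the 46 asynchronous peaks themselves, CCGGAAG was in 8 (17.4%, 7.82% to 31.4%), against 9.38% at other starts, AAGATGGCG was in 1, at Ndufa9, and GCGCATGCG in 1, at Atp5k. GGGCGG, the GC box bound by SP factors, was in 7 (15.2%, 6.34% to 28.9%), against 20.2%, and in 300 bp at 51.9% of mitochondrial and 45.8% of other starts. At 300 bp the GC box was at 34.9% (21.0% to 50.9%) of mitochondrial starts with an asynchronous peak and at 58.0% (48.3% to 67.3%) of those with no peak. These intervals overlap only between 48.3% and 50.9%, and the difference was not tested. A match is a description of the letters and not of a bound factor.

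**Figure D5:**
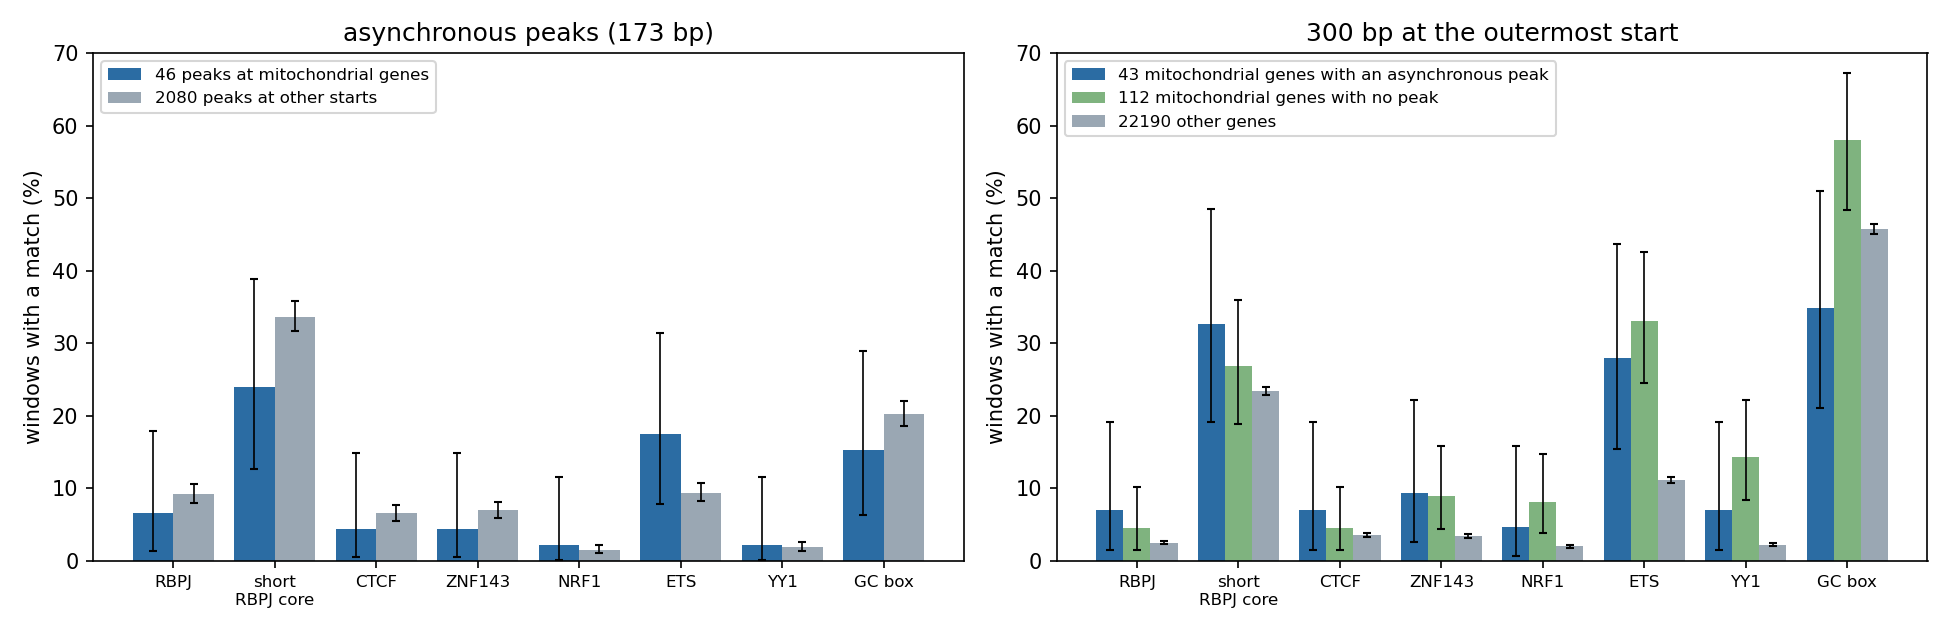
Share of windows with a motif (y axis, percent, exact 95% intervals) in asynchronous peaks at mitochondrial and other starts (left) and in 300 bp at outermost starts of mitochondrial genes with an asynchronous peak, of those with no peak and of other genes (right). The full RBPJ motif is in 6.52% of the peaks at mitochondrial genes and 9.18% at other starts, and the ETS core is at 27.9%, 33.0% and 11.1% of starts.

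Other genes for mitochondrial functions were counted in the same way, from lists that hold no gene of the 6 prefixes. Of 34 genes of the respiratory chain outside complex I, 5 had an asynchronous peak (14.7%, 4.95% to 31.1%) and 3 a mitotic peak, with Uqcrc1, a core subunit of complex III, and Cox6b2, a testis form of a cytochrome oxidase subunit, in both lists. Of 17 import genes named neither Timm nor Tomm, 5 had an asynchronous peak (29.4%, 10.3% to 56.0%), namely Gfer, Immp1l, Mtx1, Oxa1l and Samm50, and 1, the import motor chaperone Hspa9, a mitotic peak. Of 28 genes of mitochondrial translation, chiefly synthetases of transfer RNA and elongation factors, 7 had an asynchronous peak (25%, 10.7% to 44.9%), and Cars2 was in both lists.

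Of 13 genes that maintain or copy mitochondrial DNA, 4 had an asynchronous peak (30.8%, 9.09% to 61.4%) and 3 a mitotic peak, and Polg, the mitochondrial DNA polymerase, and Mterfd3 were in both lists. Of 13 genes of the citric acid cycle, 3 had an asynchronous peak (23.1%, 5.04% to 53.8%) and none had a mitotic peak. Of 9 nuclear regulators of these genes, only Gabpb2, a subunit of GABP, had a peak, and it was in both lists. The intervals are wide, and those of the respiratory chain, mitochondrial DNA, citric acid cycle and regulator lists include the asynchronous background of 10.2%.

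Large families of genes that are not mitochondrial were set beside these values. Of 42 proteasome gene identifiers, 9 had an asynchronous peak (21.4%, 10.3% to 36.8%) and 5 a mitotic peak (11.9%, 3.98% to 25.6%), with Psmb9 counted under 2 identifiers among the 9. Of 148 genes whose symbols mark cytosolic ribosomal proteins, 26 (17.6%, 11.8% to 24.7%) had an asynchronous and 15 (10.1%, 5.78% to 16.2%) a mitotic peak. Those symbols include S6 kinases and pseudogenes annotated as coding, and without them 24 of 84 (28.6%, 19.2% to 39.5%) had an asynchronous and 13 of 84 (15.5%, 8.51% to 25.01%) a mitotic peak, the 84 having been chosen after the first count was seen. The asynchronous share of the mitochondrial genes, 26.9%, lies above the interval of the 148 genes first counted. It lies within the intervals of the proteasome genes and of the 84 ribosomal genes, and the share of the latter was of similar size. Whether the mitochondrial genes differ from other housekeeping genes was not tested.

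Few peaks lay near the 2 kb limit. The most distant peaks counted were those of Timm17b at 1349 bp (asynchronous) and Tomm20 at 857 bp (mitotic), and the closest not counted were those of Ndufb10, at 2470 bp in asynchronous and 2483 bp in mitotic cells. Ndufb10 included, 2 genes in the asynchronous and 3 in the mitotic list had their nearest peak between 2 and 5 kb from a start. For the genes with no peak in reach, the median distance to the nearest peak was 93.2 kb for 117 genes in asynchronous and 174 kb for 148 genes in mitotic cells.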

How the data were processed

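Anti-RBPJ ChIP-seq of F9 cells was examined from 2 peak lists, those of the first immunoprecipitation of each population; the second immunoprecipitations, the inputs, the reads and their number per sample were not used here. The score and position of each peak are as deposited. The authors aligned reads uniquely to mm9 with bowtie (version 0.12.7 in the submitters' processing notes), called peaks in each immunoprecipitation against the matching input with the default cutoffs of HOMER, and kept those above a cutoff on the normalized number of reads.

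Peaks were joined to the starts of all transcripts of protein-coding genes (GENCODE vM1), and 30 of 22380 genes, on chromosomes with no peak, were left out. Shares were given exact Clopper-Pearson 95% intervals, and no test was made. Motifs were searched on both strands. Sequences were read from the mm9 genome. Joining, pairing and motif search were tested on simulated data. Python 3.11.15, pandas 2.3.3, numpy 2.4.6, scipy 1.17.1, pysam 0.24.0 and matplotlib 3.10.9 were used.

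Genes with a peak in both lists or in the mitotic list, the 12 genes with the highest scoring asynchronous peak, Timm13, Timm44 and the genes nearest to the 2 kb limit were named with values, and others with a peak by name, apart from items that are not reported here. The genes and lists were chosen with earlier results of these data known. Alternatives changed the distance to a start, the starts, peaks, genes and kinds of start compared, the overlap and the motif; leaving out chromosome 8, comparing within CpG-rich starts and removing pseudogene and duplicate symbols were chosen after seeing the data.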

Additional observations from a re-analysis of the deposited data

How the results depend on the processing

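Of 59 values recomputed under alternatives, 50 kept their direction and stayed within the interval (shares and ratios) or within 1.5 times the main count. The share with an asynchronous peak fell to 16.3% with only peaks at or above the median score and to 17.5% with only as many of the highest scoring asynchronous peaks as the mitotic list holds, both by construction, since fewer peaks enter. With the former, 4 genes had a peak in both lists. The asynchronous ratio was 1.72 against other genes with a CpG-rich start and 1.61 with both groups so limited. The mitotic ratio fell to 0.995 and 0.982, so that the shares were nearly equal. Pairs with centers within 1 kb numbered 9, and the shorter motif was in 23.9% of peaks, both looser by construction. Across its 13 alternatives the asynchronous ratio ran from 1.61 to 3.22. No paired analysis was possible because each population has a single peak list, which also left no replicate to leave out. Depth per population was not known here, so the smaller mitotic list cannot be read as fewer occupied sites.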
